A study of Mus musculus with 8 samples.

Results

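The Hippo pathway and its transcriptional output were followed in 3 mouse lines of EHE (epithelioid hemangioendothelioma), a vascular tumour with endothelial features. The 36 genes were listed by name: 18 regulators, the kinases, adaptors and scaffolds from Lats1 to Limd1, and 18 genes that YAP and TAZ are known to activate, from Ccn1 on. They were taken from a table of 55401 genes. Ccn1 and Ccn2 appear in older annotations as Cyr61 and Ctgf. All 36 passed the filter on low counts that kept 18882 genes for testing. Polyadenylated RNA was sequenced from EHE6 (3 libraries), EHE17 (3) and EHE26 (2), and each library is called by its line and replicate. The labels identify each library by its line alone and name no genotype, treatment, passage or age. They do not say that the libraries of a line came from separate cultures, so the p-values below measure the spread between these libraries, which may be technical.

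In the Hippo cascade the kinases MST1 and MST2, encoded by Stk4 and Stk3, act with the scaffold Sav1 to phosphorylate Lats1 and Lats2, which work with Mob1a and Mob1b. LATS kinases then phosphorylate the coactivators YAP and TAZ, which are held in the cytoplasm and degraded. Without that phosphorylation they enter the nucleus and join TEAD factors on genes such as Ccn1, Ccn2 and Ankrd1. TAZ is the product of Wwtr1, and most human EHE tumours fuse WWTR1 to CAMTA1, which gives a nuclear TAZ protein.

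Total counts ran from 44620965 to 96237665 per library, and the libraries fell into 2 sets of 4 along the first principal component of log2 expression, which held 56.2% of the variance. The first set was replicates 1 and 2 of EHE6 and of EHE17. The second set was replicate 3 of EHE6, replicate 3 of EHE17 and both EHE26 libraries. These sets come from the data and not from the labels, they are not groups of the study, and EHE26 has no library in the first. EHE17 replicate 3 stood apart, at 41.7 on that component, between the first set (-122 to -103) and the other libraries of the second (126 to 148). The first set was the deeper, with 69366708 to 96237665 counts per library against 44620965 to 55802651. A read was found for 24462 to 25177 genes in the first set and for 20066 to 20682 in the second, and the part of depth in that gap was not tested. Of 12 endothelial markers, summed in CPM (read counts scaled to library size with TMM factors), the first set held 9621 to 12875 and the second 2701 to 6485. Of these markers, Pecam1 and Cdh5 were read at 1179 to 1675 and at 1056 to 4890 CPM over the 8 libraries. The others fell lower, with lowest values from 0.526 CPM (Cldn5 and Vwf) over 22.1 CPM (Kdr) to 104 CPM (Esam). Vwf was at most 19.4 CPM. In replicate 3, 11 of 12 markers were at least 2-fold below the mean of replicates 1 and 2 in EHE6, and 4 in EHE17. The shares of all tested genes were 27.4% and 21.2%. Cldn5, the claudin of endothelial junctions, was read at only 1.05 CPM in EHE6 replicate 3 and 0.526 CPM in EHE26 replicate 2. The sum of 12 proliferation genes was 484 to 1229 CPM in the first set and 1774 to 3444 CPM in the second. Over all libraries, 8 smooth muscle and pericyte markers summed to 7.82 to 672 CPM, and 9 leukocyte markers to 48.8 to 148 CPM with Ptprc, which defines leukocytes, at most 1.49.

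The pathway was read in all lines, with medians from 0.0923 to 94.8 in RPKM, that is CPM per kilobase of exon. Only values per length can be set side by side between genes, and by the median over the 8 libraries Ajuba was the most abundant of the 36. Ajuba encodes a LIM protein that binds LATS kinases. Ccn1, a secreted matrix-associated protein, followed at 60.2 RPKM, the membrane protein gene Myof at 53.6 and the kinase coactivator Mob1a at 48.6. At the other end were Fjx1 at 0.0923 RPKM, Ankrd1 at 0.269, Fat1 at 0.391 and Wwc1 at 0.477. Of the 18 regulators, 8 had a median of at least 10 RPKM, 8 lay between 1 and 10 and 2 were below 1. Of the 18 targets the numbers were 8, 6 and 4.

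**Figure D1:**
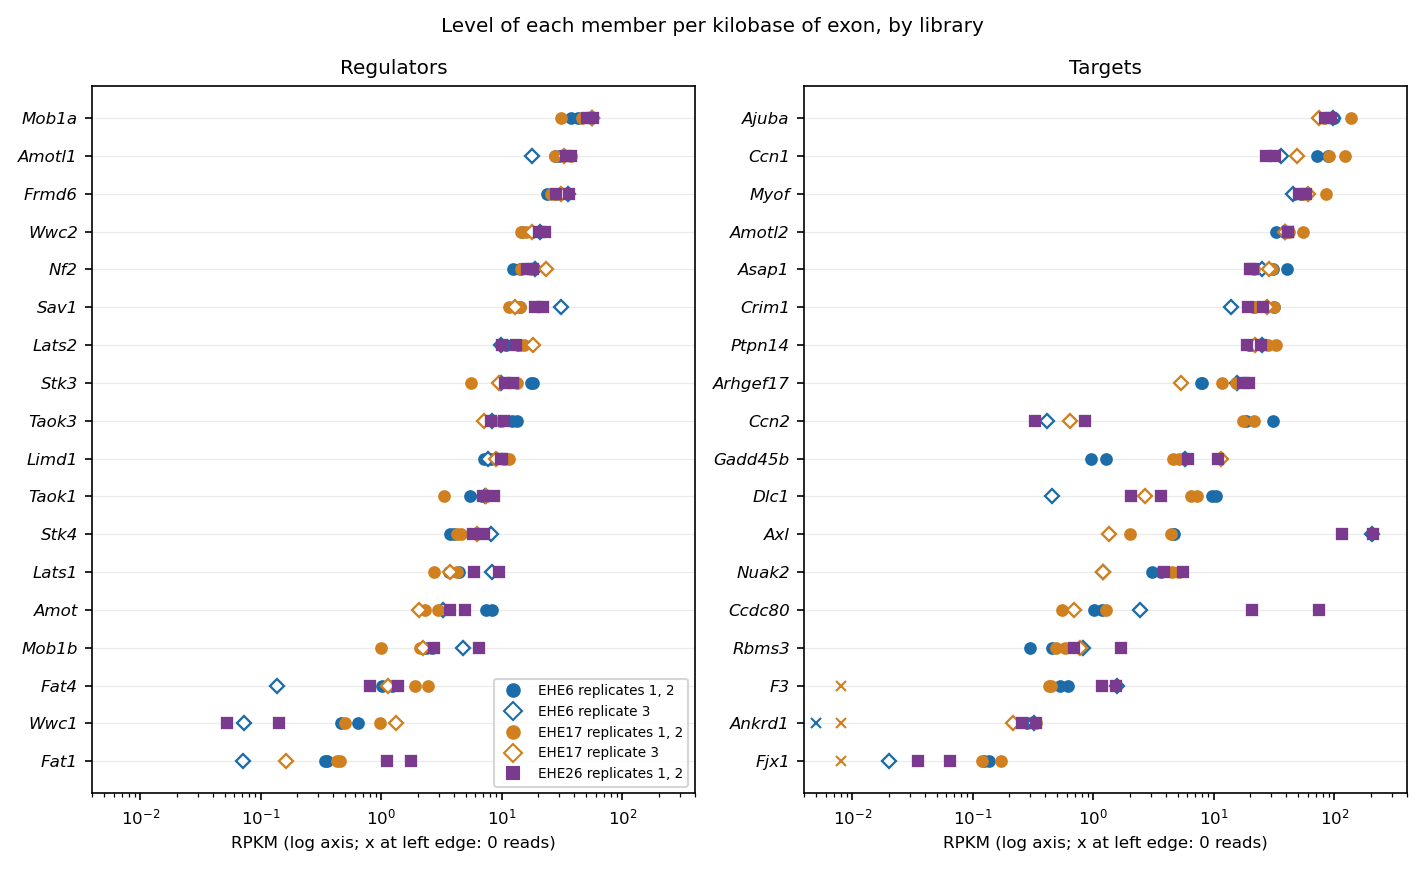
Level of each of the 36 genes in RPKM, on a log axis, with 1 point per library coloured by line, open diamonds for replicate 3 of EHE6 and of EHE17, and crosses at the left edge for 0 reads. The points of Lats2, Nf2 and Frmd6 lie close together, while those of Axl (156-fold), Ccdc80 (137-fold) and Ccn2 (93.0-fold) are spread wide.

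The regulators held closer together across the libraries than the targets did. The fold from the lowest to the highest library, in CPM, had a median of 2.40 over the 18 regulators. It had a median of 4.54 over the 15 targets with reads in every library and of 3.16 over all tested genes with reads in every library. It was under 2 for 7 regulators, Lats2, Mob1a, Nf2, Wwc2, Taok3, Frmd6 and Limd1, and for 4 targets, Amotl2, Ajuba, Ptpn14 and Myof. Among all tested genes, 18.7% were under 2. At the other extreme, 4 regulators and 6 targets ranged 5-fold or more: Wwc1 (25.5), Fat1 (24.7), Fat4 (18.1) and Mob1b on one side, and Axl (156), Ccdc80 (137), Ccn2 (93.0), Dlc1 (22.8), Gadd45b (11.9) and Rbms3 on the other. A further 3 targets, Ankrd1, F3 and Fjx1, had a library without a read. Of all tested genes, 44.4% either ranged 5-fold or more or had a library without a read. These are descriptions of 8 libraries and no test was made of the difference between regulators and targets.

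Some counts may be shared with a neighbour, since the sources used here do not say whether reads were counted by strand. Lats2 shares 2955 exon bases on its own strand with the predicted gene Gm49361, which had no count in any library. Sav1 shares 1336 exon bases with Atl1 on the opposite strand, which had 260 to 1992 counts per library beside 3350 to 7744 for Sav1. Fat4 shares 1209 with C230034O21Rik (4 to 112 counts), and Ccn2 shares 665 with Gm15270, which had 0 to 78 counts per library. Crim1 shares only 123 with Fez2, which had 3835 to 8947 counts.

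TEAD factors bind DNA at the letters GGAATG, or CATTCC when read on the other strand. Promoters of 300 bases, 250 before and 50 after the transcription start, were taken from the RefSeq table of build GRCm38.p6, which matched 27 of the 36 genes with 30 promoters. The letters, searched on both strands, occurred in 12 of those 30 and in 14.7% of the 32851 promoters in the table. They were found for 7 of 11 targets with an entry, Ccn1, Ankrd1, Amotl2, Axl, Ajuba, Crim1 and Ptpn14. Among 16 regulators with an entry they were found for 5: Lats2, Sav1, Mob1a, Wwc2 with 3 matches, and Fat1. The matching windows of Fat1 (chr8:44949958-44950257) and Lats2 (chr14:57746074-57746373) lay well inside the annotated gene spans (chr8:44935447-45052257 and chr14:57689662-57758388). Those matches thus belong to starts inside the gene. The windows of Wwc2, Amotl2 and Ankrd1 also lay inside the gene span, near its outer end. Ccn2, Stk3, Limd1, Nuak2, Ccdc80, Arhgef17, Dlc1, Asap1 and Fjx1 had no entry. The promoters below belong to targets that hold the letters and had unlike levels across the libraries: Ccn1 and Axl, which were high in different libraries, Amotl2, which was steady, and Ankrd1, which was low throughout. Each is written 5′ to 3′ on the strand of its gene with the motif letters in capitals, and a match is a description of the letters, not a binding site.
Ccn1: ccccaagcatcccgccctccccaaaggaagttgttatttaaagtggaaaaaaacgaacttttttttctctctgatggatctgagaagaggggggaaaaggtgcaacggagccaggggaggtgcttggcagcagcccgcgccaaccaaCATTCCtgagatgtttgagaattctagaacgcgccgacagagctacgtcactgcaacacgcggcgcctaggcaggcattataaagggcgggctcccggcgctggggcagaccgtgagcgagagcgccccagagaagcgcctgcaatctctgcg
Amotl2: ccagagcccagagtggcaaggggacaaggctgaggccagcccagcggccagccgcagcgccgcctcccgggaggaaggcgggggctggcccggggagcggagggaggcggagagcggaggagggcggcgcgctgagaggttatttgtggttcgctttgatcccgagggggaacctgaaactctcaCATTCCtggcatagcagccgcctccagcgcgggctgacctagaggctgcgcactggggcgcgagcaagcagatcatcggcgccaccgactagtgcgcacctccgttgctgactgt
Axl: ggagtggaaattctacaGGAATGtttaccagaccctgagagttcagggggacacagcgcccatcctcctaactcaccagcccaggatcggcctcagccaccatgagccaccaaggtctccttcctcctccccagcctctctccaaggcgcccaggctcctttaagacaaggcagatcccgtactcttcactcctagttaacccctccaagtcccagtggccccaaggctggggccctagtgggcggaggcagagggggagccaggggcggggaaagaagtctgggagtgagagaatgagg
Ankrd1: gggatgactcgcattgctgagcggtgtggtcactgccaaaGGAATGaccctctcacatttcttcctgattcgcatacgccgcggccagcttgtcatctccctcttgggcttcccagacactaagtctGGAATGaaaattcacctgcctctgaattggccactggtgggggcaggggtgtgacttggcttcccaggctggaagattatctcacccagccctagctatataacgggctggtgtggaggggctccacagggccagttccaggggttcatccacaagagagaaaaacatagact
These windows are chr3:145649936-145650235 on the minus strand for Ccn1, chr9:102717554-102717853 on the plus strand for Amotl2, chr7:25788684-25788983 on the minus strand for Axl and chr19:36119795-36120094 on the minus strand for Ankrd1. With the base before the start counted as -1, the match began at -103 in Ccn1, at -65 in Amotl2 and at -233 in Axl. Ankrd1 had a pair of matches, at -210 and -123, and at least 2 matches were found in 1.36% of all promoters in the table.

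The core kinases were expressed in every library and none passed the test between lines. Lats1 stood at 26.5, 32.2 and 60.5 CPM in EHE6 replicates 1, 2 and 3, at 30.9, 19.9 and 26.9 CPM in EHE17, and at 42.7 and 69.1 CPM in EHE26. Its levels were highest in EHE26 replicate 2 and EHE6 replicate 3, and only EHE17 and EHE26 did not overlap. The log2 fold change of EHE26 against EHE17 was 1.11 ± 0.41 (SE), with an adjusted p of 0.252 in edgeR's quasi-likelihood test. Lats2, the paralog of Lats1 and itself induced by YAP in many cells, read 75.2, 95.5 and 68.5 CPM in EHE6, 105, 97.6 and 127 CPM in EHE17, and 90.5 and 69.3 CPM in EHE26. It was the steadier of the pair, with every EHE17 library above every library of the other lines. The log2 fold change of EHE17 against EHE6 was 0.46 ± 0.23 (adjusted p = 0.800, edgeR).

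The genes of the upstream MST kinases ranged 3.22-fold (Stk3) and 2.19-fold (Stk4) over the libraries. Stk3 was read at 106, 110 and 60.4 CPM in EHE6, at 80.8, 34.1 and 57.7 CPM in EHE17, and at 64.8 and 75.8 CPM in EHE26. Stk4 was read at 21.8, 23.3 and 47.9 CPM in EHE6, at 24.7, 26.8 and 36.5 CPM in EHE17, and at 34.0 and 41.6 CPM in EHE26. The lines overlapped in both genes. Every Stk4 value of the second set lay above the first set, and Stk3 showed no such order. The absolute log2 fold changes of both kinases were at most 0.68 in the 3 comparisons, and the lowest adjusted p of edgeR was 0.657. Their partners ranged from 60.7 to 163 CPM for Sav1, from 149 to 272 CPM for Mob1a and from 14.9 to 97.1 CPM for Mob1b. Sav1 and Mob1b were highest in EHE6 replicate 3 and EHE26 replicate 2, respectively.

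Upstream and beside the kinases stand membrane scaffolds and cadherins. Nf2, whose product merlin brings LATS kinases to the membrane, was read at 97.4, 84.4 and 127 CPM in EHE6, at 98.5, 119 and 157 CPM in EHE17, and at 124 and 109 CPM in EHE26. All lines overlapped and the absolute log2 fold changes were at most 0.28. The FERM protein gene Frmd6 ranged from 151 to 231 CPM, the scaffold gene Wwc2 from 197 to 311 and the LIM protein gene Limd1, whose product restrains LATS, from 42.5 to 69.5. The kinase genes Taok1 and Taok3, whose products phosphorylate the MST kinases, ranged from 41.0 to 107 and from 78.5 to 148 CPM. None of these 6 genes had an adjusted p under 0.391 in any comparison.

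The motin genes Amot and Amotl1 encode junction proteins that bind YAP and hold it out of the nucleus, and their orders of libraries were unlike. Amot was read at 62.0, 69.3 and 27.3 CPM in EHE6, at 24.7, 19.2 and 17.2 CPM in EHE17, and at 41.2 and 31.4 CPM in EHE26. Every EHE17 library lay below every library of the other lines. EHE17 against EHE6 gave a log2 fold change of -1.38 ± 0.37, with an unadjusted p of 0.00586 and an adjusted p of 0.381 (edgeR), so this was not called. Amot is shown by library because of that value and was chosen after it was seen. Amotl1 ranged from 180 to 376 CPM, with its lowest value in EHE6 replicate 3.

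The widest ranges among the regulators belonged to Wwc1 and to the atypical cadherins Fat1 and Fat4, all low in reads per length. Fat1, at chr8:44935447-45052257 in GRCm38, was read at 5.55, 5.36 and 1.11 CPM in EHE6, at 6.69, 7.05 and 2.55 CPM in EHE17, and at 27.5 and 17.5 CPM in EHE26. Both EHE26 libraries stood above all 6 others, and replicate 3 was the lowest library in EHE6 and in EHE17. Fat1 gave a log2 fold change of 2.49 ± 0.72 for EHE26 against EHE6 (adjusted p = 0.181, edgeR) and 2.05 ± 0.71 for EHE26 against EHE17 (adjusted p = 0.229). With the set of libraries added as a term these became 4.01 (adjusted p = 0.00888) and 3.40 (adjusted p = 0.0150). The set was drawn from the same counts, so these p-values describe that fit and are not independent tests. Without EHE6 replicate 3 the comparison with EHE17 passed the threshold, at 2.04 (adjusted p = 0.0433, edgeR). Over all alternatives the adjusted p ran from 0.00888 to 0.639 for EHE26 against EHE6 and from 0.015 to 0.611 for EHE26 against EHE17.

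Wwc1, which encodes the scaffold KIBRA that works with merlin, was read at 2.28, 3.16 and 0.357 CPM in EHE6, at 4.82, 2.46 and 6.56 CPM in EHE17, and at 0.258 and 0.702 CPM in EHE26. EHE17 and EHE26 did not overlap, and EHE6 replicate 3 fell in with EHE26. The log2 fold change of EHE26 against EHE17 was -3.26 ± 1.04, with an adjusted p of 0.200 (edgeR), and without EHE6 replicate 3 it was -3.28 with an adjusted p of 0.0347. Across alternatives that p ran from 0.00556 to 0.593. Fat4 ranged from 2.33 CPM in EHE6 replicate 3 to 42.1 CPM in EHE17 replicate 2, and its lines overlapped.

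Among the targets, Ccn2 divided the libraries by set and not by line. Ccn2, at chr10:24595442-24598683, encodes a secreted matrix-associated protein and is among the most used readouts of YAP and TAZ. It was read at 52.7, 87.7 and 1.18 CPM in EHE6, at 62.0, 49.7 and 1.85 CPM in EHE17, and at 2.45 and 0.943 CPM in EHE26. Replicate 3 of EHE6 and of EHE17 lay within the values of EHE26, far from the other libraries of their own lines. The lowest library of the first set was 20.3-fold above the highest of the second, and the set means differed 39.3-fold. Ccn2 was the 1 member of 36 (2.78%) whose sets stood apart by at least 2-fold, a separation found in 9.17% of all tested genes and, with the first set higher, in 8.03%. These sets were drawn from the same counts, so no test was made.

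The line comparisons of Ccn2 depended on whether the set was a term. The log2 fold change was -0.32 ± 1.38 in EHE17 relative to EHE6, -4.79 ± 1.94 in EHE26 relative to EHE6 and -4.48 ± 1.91 in EHE26 relative to EHE17, with adjusted p-values of 1, 0.302 and 0.297 (edgeR). With the set as a term the comparisons with EHE26 were 0.15 (adjusted p = 0.973) and 0.18 (adjusted p = 0.980). DESeq2, in contrast, called both, at -4.83 (adjusted p = 0.00773) and -4.49 (adjusted p = 0.0148). Over the alternatives the adjusted p ran from 0.00678 to 0.973 and from 0.00711 to 0.98. Within the second set alone, EHE26 differed from EHE6 replicate 3 by a log2 value of 0.36 and from EHE17 replicate 3 by -0.27.

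Other gene groups differed along the same split. Of the 12 endothelial markers, 8 were higher in every library of the first set than in any of the second. Of 12 proliferation genes 10 were higher in every library of the second set. Among all 18882 tested genes, 3171 were higher in every library of the first set and 1866 in every library of the second. The sets were drawn from the same counts, so no test was made. Of the 8 epithelial markers, Epcam, Cdh1, Krt8, Krt5 and Cldn4 were higher in the first set, where Epcam reached 9.79 CPM. Epcam was at 0 in EHE6 replicate 3, EHE17 replicate 3 and EHE26 replicate 2. The summed epithelial markers held 19.9 to 39.3 CPM in the first set and 1.16 to 105 CPM in the second, where Krt18 gave 89.2 CPM in EHE6 replicate 3. The part of these groups in the Ccn2 values was not tested. In bulk RNA, fewer cells that express a gene and less of its RNA per cell cannot be told apart.

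Ccn1, the closest relative of Ccn2 on the list, showed the same split by set with a far smaller range, though not the same order within the sets. Ccn1, at chr3:145646976-145649981, was read at 144, 177 and 72.5 CPM in EHE6, at 183, 247 and 99.2 CPM in EHE17, and at 64.3 and 54.4 CPM in EHE26. The first set was again above the second, with 1.45-fold between its lowest library and the highest of the second set and 2.59-fold between the means. EHE26 lay below every library of the other lines, at a log2 fold change of -1.14 ± 0.48 against EHE6 (adjusted p = 0.311, edgeR) and -1.57 ± 0.49 against EHE17 (adjusted p = 0.191). With the replicate block both were called, at -1.41 (adjusted p = 0.0354) and -1.84 (adjusted p = 0.0167). EHE26 has only replicates 1 and 2, whose numbers do not pair with the other lines. The block thus set it mainly against libraries of the first set, and those calls mix line and set. With the set as a term the log2 fold changes were -0.30 (adjusted p = 0.733) and -0.73 (adjusted p = 0.294). Over the alternatives the adjusted p ran from 0.0354 to 0.733 and from 0.0167 to 0.685. Within the second set the log2 differences of EHE26 were -0.29 from EHE6 replicate 3 and -0.74 from EHE17 replicate 3.

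**Figure D2:**
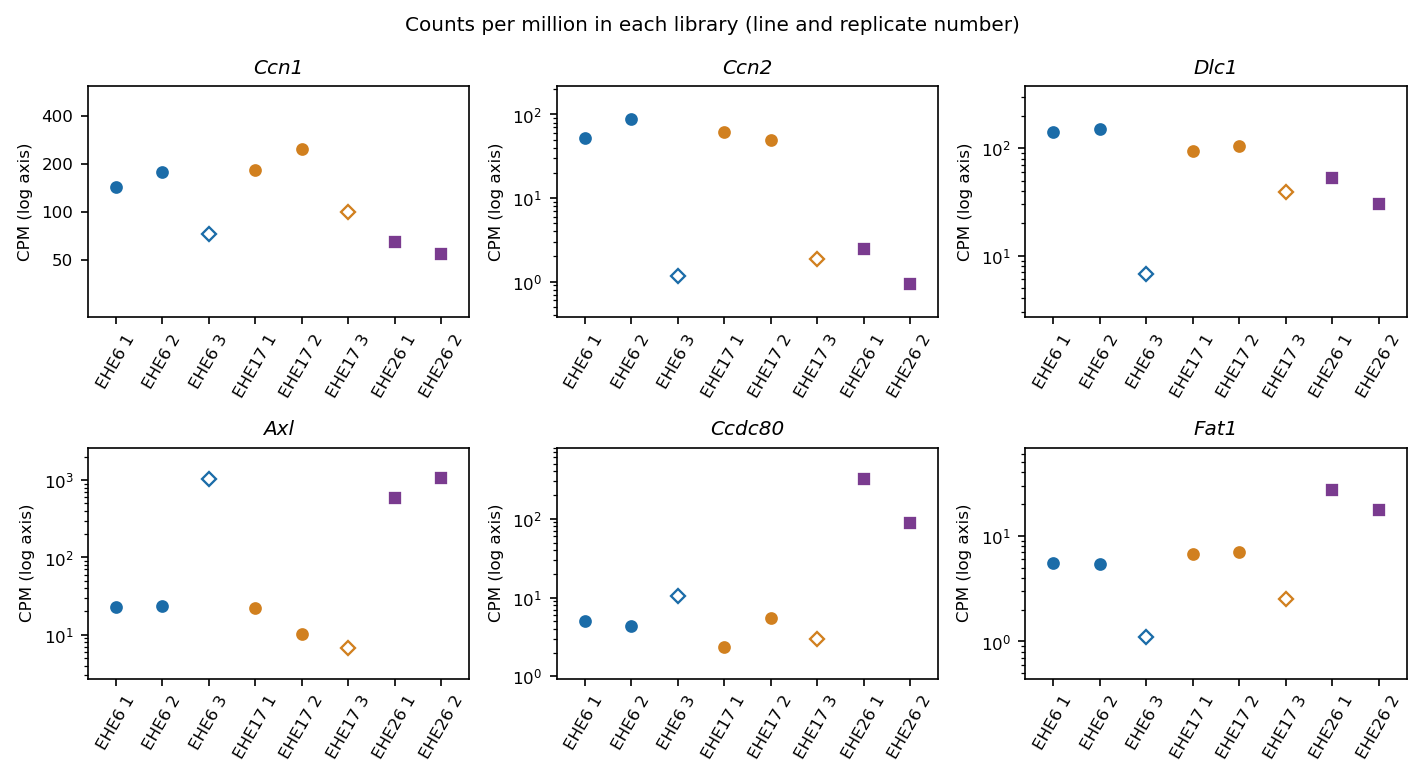
CPM by library, on log axes, for Ccn1, Ccn2, Dlc1, Axl, Ccdc80 and Fat1; points are coloured by line, and open diamonds are replicate 3 of EHE6 and of EHE17. Ccn2 and Ccn1 are low in both diamonds and in EHE26, Axl is high in EHE6 replicate 3 and EHE26 (lowest 582 CPM) and at most 23.6 CPM elsewhere, and Ccdc80 is high in EHE26.

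Ankrd1, a nuclear ankyrin-repeat protein and the third classical readout, was read at under 1 CPM, with 2 zeros among replicates that otherwise had reads. It was read at 0, 0.818 and 0.924 CPM in EHE6, at 0.969, 0 and 0.622 CPM in EHE17, and at 0.736 and 0.965 CPM in EHE26. The zeros were EHE6 replicate 1 and EHE17 replicate 2, where a count of 0 allows up to 0.0404 and 0.0332 CPM (3 counts, counting error only), and the other 6 libraries held 31 to 78 counts. The zeros therefore lay far below the replicates of their own lines, and no fold is given for this gene. Fjx1, a regulator of Fat and Dachsous signalling, was lower still, between 0 and 0.534 CPM with a highest count of 43. F3, the tissue factor that starts coagulation, was read at 1.35, 1.57 and 3.99 CPM in EHE6, at 1.08, 1.13 and 0 CPM in EHE17, and at 3.90 and 3.0 CPM in EHE26. EHE26 was above all EHE17 libraries, and the 0 of EHE17 replicate 3 allows up to 0.0602 CPM. The difference from EHE17 had an adjusted p of 0.428 (edgeR).

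Amotl2, a motin that YAP induces and that in turn binds YAP, was among the steadiest targets. It stood at 204, 243 and 243 CPM in EHE6, at 262, 348 and 246 CPM in EHE17, and at 260 and 261 CPM in EHE26. Both other lines were above every EHE6 library, by small amounts: the log2 fold change was 0.31 ± 0.22 for EHE17 (adjusted p = 0.954, edgeR) and 0.18 ± 0.25 for EHE26 (adjusted p = 0.781). Unlike Ccn1 and Ccn2, Amotl2 was not low in the second set. Ajuba (271 to 499.7 CPM), the phosphatase gene Ptpn14 (255 to 439 CPM), whose product binds YAP, and Myof (575 to 1063 CPM) also ranged less than 2-fold.

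Axl, a receptor tyrosine kinase that is a YAP target in several tumours, had the widest range of all 36. Axl, at chr7:25757273-25788705, was read at 23.0, 23.6 and 1023 CPM in EHE6, at 22.2, 10.2 and 6.78 CPM in EHE17, and at 582 and 1061 CPM in EHE26. It was high in EHE26 and in EHE6 replicate 3 alone, and the lowest of those 3 libraries was 24.7-fold above the highest of the other 5. EHE17 replicate 3, though in the second set, had the lowest value. Axl thus had a pattern unlike those of Ccn1 and Ccn2, which were low in the same 3 libraries. Fitted log2 fold changes were -4.77 ± 1.53 in EHE17 relative to EHE6 (adjusted p = 0.525, edgeR), 1.20 ± 1.44 in EHE26 relative to EHE6 (adjusted p = 0.739) and 5.98 ± 1.67 in EHE26 relative to EHE17 (adjusted p = 0.156).

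Axl was called under some alternatives, and most clearly without EHE6 replicate 3. Without that library EHE26 was above EHE6 by 5.14 (adjusted p = 0.00508, edgeR) and above EHE17 by 5.97 (adjusted p = 0.00194), and the difference of EHE17 from EHE6 shrank to -0.83 (adjusted p = 0.776). Fitted on the libraries of EHE26 and EHE17 alone, the difference was 5.97 (adjusted p = 0.00736), and without the filter on low counts it was 5.96 (adjusted p = 0.0169). With the replicate block it was 6.32 (adjusted p = 0.0389), but that block set EHE26 mainly against libraries of the first set. Over the alternatives that gave an adjusted p, it ran from 0.00194 to 0.655 for EHE26 against EHE17 and from 0.00508 to 0.958 for EHE26 against EHE6. DESeq2 gave Axl a log2 fold change of -4.77 but no adjusted p in EHE17 against EHE6. Of the 10 fibroblast markers, Pdgfra and Pdgfrb had the same high libraries as Axl, and they are named after their values were seen. Pdgfra was read at 252 CPM in EHE6 replicate 3 and at 77.5 and 59.8 CPM in EHE26, against at most 5.21 CPM elsewhere. Pdgfrb was read at 22.0, 63.0 and 28.9 CPM in the same libraries and at most 2.14 CPM elsewhere. The other 8 markers were below both other EHE6 libraries in EHE6 replicate 3, where Dcn (0.966 CPM) and Col3a1 (6.49 CPM) had their lowest values. All 10 markers summed to 299 to 1097 CPM in those 3 libraries and to 408 to 1803 CPM in the other 5, with Thy1 alone between 8.80 and 1767 CPM, and Lum at 0 in replicate 3 of EHE6 and of EHE17. The part of such cells in the Axl values was not tested.

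Ccdc80 was the only member called in any comparison, and it was called in both comparisons with EHE26. Ccdc80, at chr16:45093402-45128077, encodes a secreted matrix protein. It was read at 5.04, 4.30 and 10.4 CPM in EHE6, at 2.35, 5.48 and 2.99 CPM in EHE17, and at 321 and 88.3 CPM in EHE26. The lower EHE26 library was 8.45-fold above the highest library of the other lines, and the EHE26 libraries differed 3.64-fold from each other. EHE26 was higher than EHE6 by a log2 fold change of 4.96 ± 0.68 (adjusted p = 0.0168, edgeR) and higher than EHE17 by 5.82 ± 0.71 (adjusted p = 0.0130). With the set, drawn from the same counts, as a term the values were 4.72 (adjusted p = 0.0307) and 5.48 (adjusted p = 0.0293).

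Each Ccdc80 call depended on single libraries. The log2 fold change was at least 3.74 under every alternative run, but the adjusted p against EHE6 was 0.106 without EHE6 replicate 1, 0.0858 without EHE6 replicate 2 and 0.0854 without EHE26 replicate 1 (edgeR). It was 0.0630 with only EHE6 and EHE26 in the fit. Against EHE17 it was 0.0989 without EHE17 replicate 1, 0.0674 without EHE17 replicate 2 and 0.0552 without EHE26 replicate 1. Across all alternatives the adjusted p for Ccdc80 ran from 1.83e-10 to 0.106 against EHE6 and from 2.4e-14 to 0.0989 against EHE17. The fibroblast markers summed to 1097 and 346 CPM in EHE26 and to 299 to 1803 CPM in the others, with Thy1 a large part. Dcn, at 206 CPM, Pdgfrb and Fap were highest in EHE26 replicate 1, where Ccdc80 was highest too, and were named after their values were seen. The other fibroblast markers, Col1a1, Col1a2, Col3a1, Lum, Pdgfra, Postn and Thy1, were highest in a library of EHE6 or EHE17. The pericyte marker Cspg4 was read at 18.5 and 24.5 CPM in EHE26 and at most 2.02 CPM elsewhere. It was called higher in EHE26 than in EHE17 (log2 fold change 6.08 ± 0.95, adjusted p = 0.0323, edgeR). Of the other smooth muscle and pericyte markers, Tagln and Notch3 were highest in EHE26, and Acta2, Myh11, Cnn1, Rgs5 and Des in EHE6. All 8 summed to 96.8 to 127 CPM in EHE26, 204 to 672 CPM in EHE6 and 7.82 to 62.1 CPM in EHE17. The part of such cells in the Ccdc80 values was not tested.

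The remaining targets were not called and are given by range, with values by library for those that were seen to vary. Dlc1, known as a tumour suppressor, was read at 142, 153 and 6.70 CPM in EHE6, at 94.0, 106 and 39.1 CPM in EHE17, and at 53.2 and 30.3 CPM in EHE26. Its first set was above its second, as in Ccn1 and Ccn2, by less than 2-fold at the nearest libraries. Gadd45b, a stress-induced gene, ran the other way, at 1.52, 2.0 and 9.16 CPM in EHE6, at 8.13, 7.34 and 18.1 CPM in EHE17, and at 9.77 and 17.2 CPM in EHE26. The log2 fold change of EHE26 against EHE6 was 1.68 ± 0.80 (adjusted p = 0.343, edgeR), and without EHE6 replicate 3 it was 2.94 (adjusted p = 0.0249). Over the alternatives this p ran from 0.0249 to 0.776. The kinase gene Nuak2 ranged from 4.67 to 21.7 CPM and was lowest in replicate 3 of EHE17 and EHE6. With the set, drawn from the same counts, as a term Nuak2 was higher in EHE26 than in EHE6 by 2.14 (adjusted p = 0.0334). Without the term it was higher by 0.83 ± 0.66 (adjusted p = 0.583), and over the alternatives this p ran from 0.0334 to 0.908.

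Arhgef17 ranged from 57.2 CPM in EHE17 replicate 3 to 213 CPM in EHE26 replicate 1, and both EHE26 libraries were above all others. Crim1, a membrane protein that binds BMP ligands, ranged from 82.8 to 190 CPM, and the Arf regulator Asap1 from 150 to 301 CPM with its lowest values in EHE26. Rbms3, an RNA-binding protein, ranged from 3.12 to 17.6 CPM and was higher in every library of the second set. The lowest adjusted p among these 4 genes was 0.324 (edgeR), for Asap1 in EHE26 against EHE6.

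Counted over the whole list, 4 members were higher in every library of the first set and 6 in every library of the second, together 27.8% of 36 beside 26.7% of all tested genes. The first 4 were Ccn1, Ccn2, Dlc1 and Fjx1, all targets. The 6 were the regulators Stk4, Mob1a, Wwc2 and Frmd6 and the targets Rbms3 and Gadd45b. The share on the list was thus close to that of all genes.

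Replicate 3 could be set against replicates 1 and 2 within EHE6 and within EHE17, as differences of log2 CPM with no test. Ccn2 differed by -5.82 in EHE6 and -4.89 in EHE17, and Ccn1 by -1.14 and -1.10. Dlc1 differed by -4.45 and -1.35, Nuak2 by -1.47 and -2.0, and Fat1 by -2.26 and -1.42. Gadd45b was higher in both, by 2.37 and 1.22. In EHE6, 18 of 36 members lay at least 2-fold from the mean of the other libraries, 9 above and 9 below, beside 42.2% of all tested genes. In EHE17 it was 11 of 36 (30.6%), 2 above and 9 below, beside 31.2%. In EHE17, 8 of 18 targets and 1 of 18 regulators were at least 2-fold lower, beside 21.2% of all tested genes, and in EHE6 it was 5 targets and 4 regulators, beside 27.4%. Over both lines, 9 members were above both other libraries in each line, beside 18.6% of all tested genes. Another 9 were below both in each, beside 28.3%, and 6 went opposite ways, beside 15.8%.

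**Figure D3:**
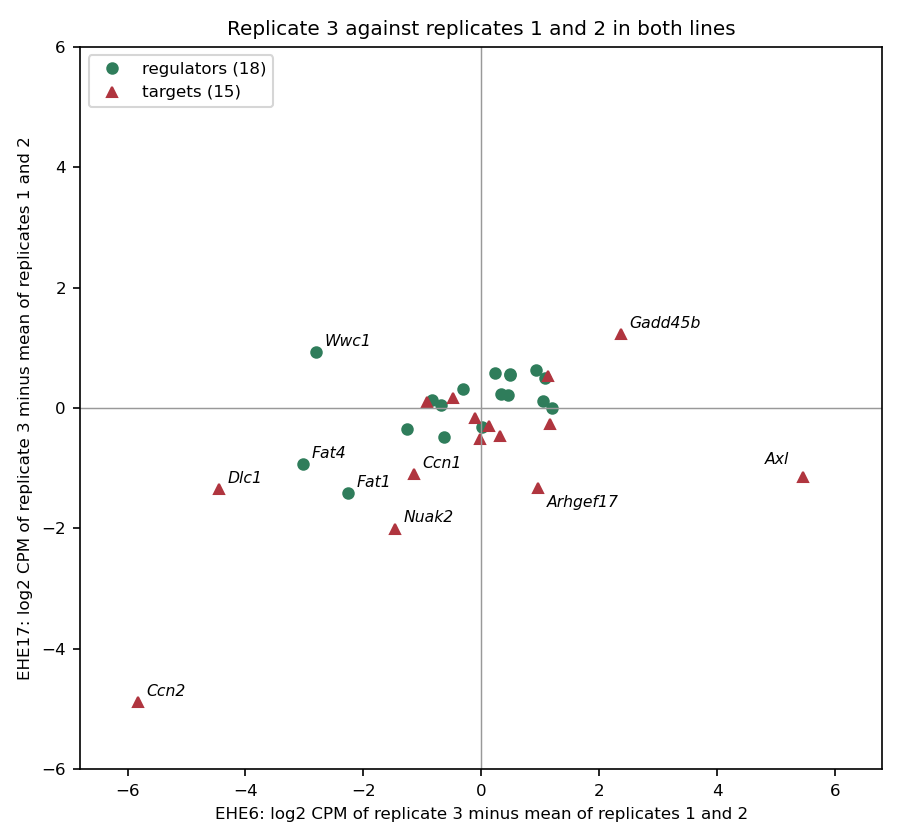
Log2 CPM of replicate 3 minus the mean of replicates 1 and 2, for EHE6 on the horizontal axis and EHE17 on the vertical axis, with 1 point per gene for 18 regulators (circles) and the 15 targets read in every library (triangles). Ccn2 lies far in the lower left (-5.82 and -4.89), Axl far to the right and below 0 (5.46 and -1.14), and most regulators lie near 0 on the vertical axis.

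Each pair of lines was then compared over the full table. For EHE17 against EHE6, no member of 36 was called, where 0.143% of all tested genes were called, 0.0794% higher and 0.0636% lower. At an unadjusted p under 0.05 there were 2 members, Amot and Axl, beside 6.9% of all genes, and DESeq2 called 0. The libraries of the lines did not overlap for 8 members, 4 higher and 4 lower in EHE17, beside 12.2% of all genes. The members' median log2 fold change was -0.01, and that of all tested genes was -0.03.

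EHE26 against EHE6 gave 1 call, Ccdc80, where 1.26% of all tested genes were called, 1.1% higher and 0.159% lower. At an unadjusted p under 0.05 there were 4 members beside 15.9% of all genes. Lines did not overlap for 11 members, 8 higher and 3 lower in EHE26, beside 31.3%. The median was 0.22 over the members, 0.25 over the regulators and 0.18 over the targets, and -0.11 over all genes. Positive values were found for 14 of 18 regulators and 11 of 18 targets. EHE26 against EHE17 gave the same call, where 1.08% of all tested genes were called, 0.89% higher and 0.185% lower. There were 8 members at an unadjusted p under 0.05 beside 16.6% of all genes, and 14 without overlap, 10 higher and 4 lower, beside 39%. The median was 0.23 over the members, 0.28 over the regulators and -0.14 over the targets, and -0.11 over all genes. EHE26 is a common arm of these comparisons, and its libraries are all in the second set, so line and set cannot be told apart for EHE26 beyond the values within the second set.

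**Figure D4:**
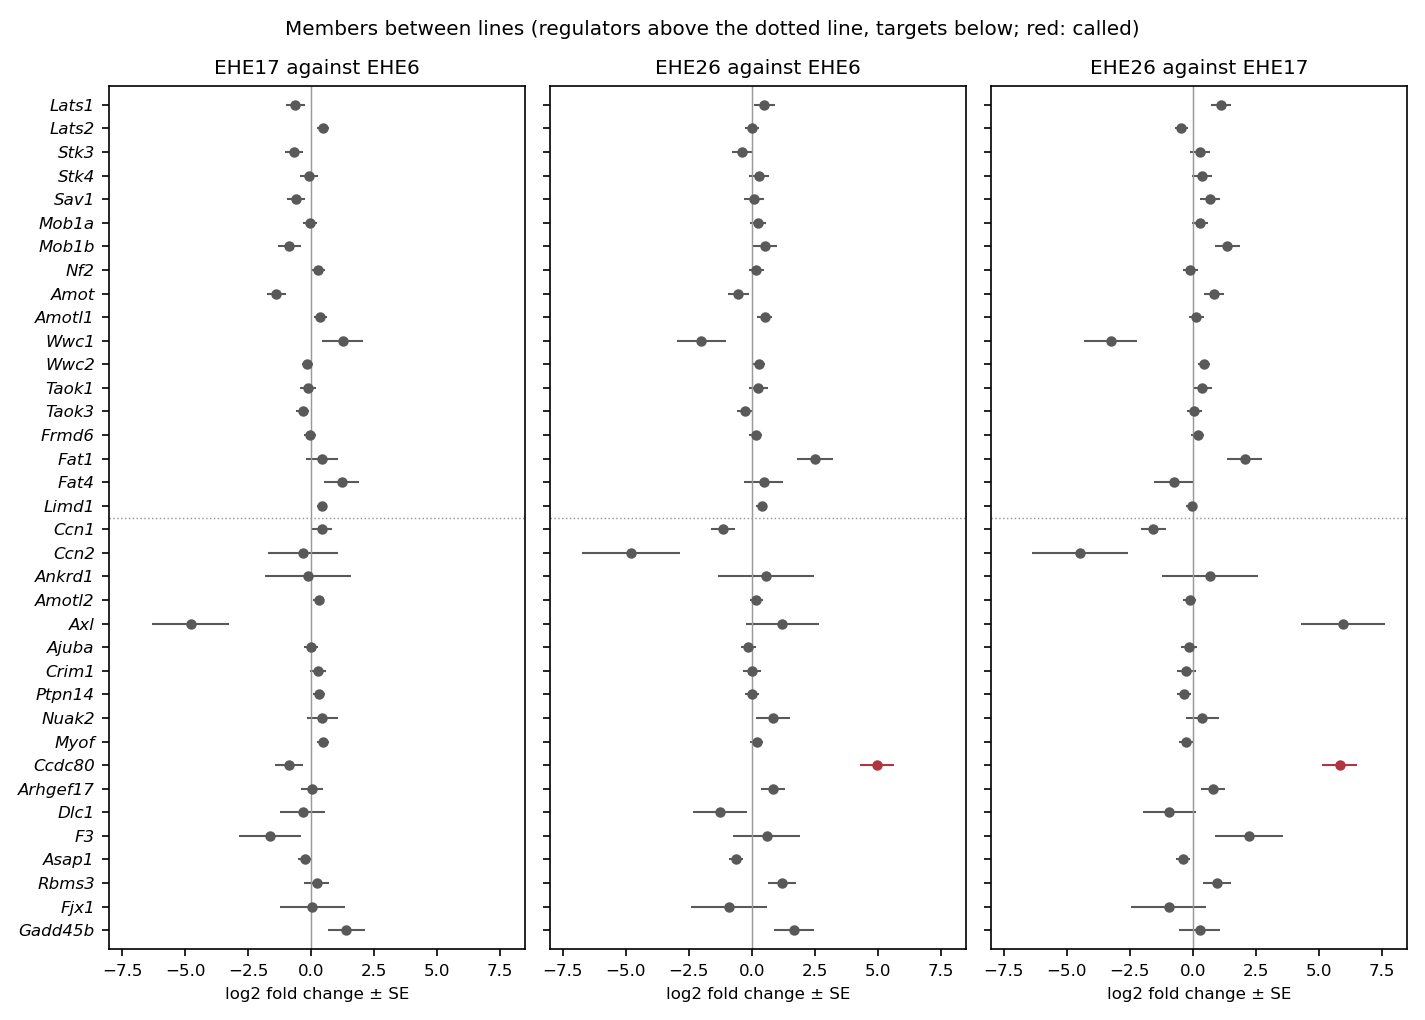
Log2 fold changes of the 36 members in the 3 line comparisons, with called values in red. Bars are 1 SE, derived from the test statistic of the fit over 8 libraries. Ccdc80 is red in both comparisons with EHE26, at 4.96 and 5.82, and the bars of Ccn2, Axl and Ankrd1 are the long ones.

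Neither coactivator passed the test in any comparison. Yap1 was read at 164, 163 and 114 CPM in EHE6, at 186, 187 and 211 CPM in EHE17, and at 208 and 203 CPM in EHE26. EHE6 was the lowest line, with no overlap, and the log2 fold change was 0.40 ± 0.22 for EHE17 (adjusted p = 0.843, edgeR) and 0.48 ± 0.24 for EHE26 (adjusted p = 0.363). Wwtr1, which encodes TAZ, was read at 76.4, 72.1 and 89.8 CPM in EHE6, at 87.1, 116 and 74.5 CPM in EHE17, and at 84.8 and 107 CPM in EHE26, and its lines overlapped. A count on Wwtr1 cannot say whether the read came from a normal or a fused transcript.

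Further genes of the pathway were read from lists of 10 effectors (8 tested), 54 other upstream genes (52 tested) and 22 other targets (all tested). No effector and no upstream gene was called in any comparison. For EHE17 against EHE6 the other targets gave 0 calls as well. At an unadjusted p under 0.05 (edgeR) there were 2, 6 and 5 genes of the respective lists, beside 6.9% of all tested genes. In the comparisons of EHE26 with EHE6 and EHE17 that number was 0 and 0 for the effectors and 8 and 7 for the upstream genes. It was 6 and 9 for the other targets, beside 15.9% and 16.6% of all tested genes. DESeq2 called 7 and 8 genes over the 3 lists and 1570 and 1712 over all genes, with no share computed. Against EHE6, EHE26 had 2 of the 22 other targets called higher, Ereg and Inhba, where 1.1% of all tested genes were called higher. Against EHE17 it had 1, Inhba, where 0.89% were called higher.

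Ereg, which encodes the growth factor epiregulin, was read at 7.33, 9.68 and 15.4 CPM in EHE6, at 34.4, 13.4 and 32.6 CPM in EHE17, and at 95.8 and 286 CPM in EHE26. Both EHE26 libraries were above all others, and the log2 fold change against EHE6 was 4.15 ± 0.61 (adjusted p = 0.0216, edgeR). Inhba, a subunit of activin, was read at 10.8, 11.8 and 12.2 CPM in EHE6, at 11.2, 2.65 and 13.7 CPM in EHE17, and at 87.2 and 155 CPM in EHE26. It was higher in EHE26 than in EHE6 by 3.38 ± 0.61 (adjusted p = 0.0462, edgeR) and than in EHE17 by 3.73 ± 0.62 (adjusted p = 0.0381). These calls also rested on single libraries: without EHE6 replicate 1, EHE6 replicate 2 or EHE26 replicate 2 none of the other pathway genes was called against EHE6, and without EHE6 replicate 3 there were 12. Against EHE17 the number was 0 without EHE6 replicate 1 or 2, without any 1 library of EHE17 or without either library of EHE26, and 11 without EHE6 replicate 3.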

How the data were processed

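Polyadenylated RNA was prepared with the RNeasy Mini kit and made into libraries with the NEBNext Ultra II kit, per the labels' protocols. Reads were aligned with HISAT2 to mm10, per the submitters' processing notes; the counting tool, annotation and strand setting are not given in the sources used here. Deposited values are whole-number counts for Ensembl genes, and the 8 single-library files hold the same values as the columns of the series table. Symbols and exon lengths came from GENCODE M21 (GRCm38), which lists 55141 of the 55401 genes; the others hold at most 0.0181% of a library's counts.

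Counts were filtered (filterByExpr by line) and fitted with edgeR 4.0.16 in R 4.3.3: TMM factors, the quasi-likelihood test, all 8 libraries, line as the only term, 5 residual degrees of freedom. P-values were adjusted by Benjamini-Hochberg over 18882 genes, and a call needs an adjusted p below 0.05 with a log2 fold change of 1 or more in either direction. Biological variation between libraries (common coefficient) was 0.600, or 0.427 once the set was a term. Log2 CPM used a prior count of 2. The 3-count limits cover counting error only. The pipeline was tested on simulated counts, with 50 genes changed at each size. Over the 3 comparisons it called 0 to 2% of those changed by a log2 value of 1 and 8 to 12% at 2. It called 76 to 88% at 4 and 88 to 90% at 6. A gene that was not called may therefore still differ between lines.

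Members and lists were chosen with earlier results of these data known. Values by library are given for members called, for those whose sets or lines stood at least 2-fold apart, and for Ccn1, Ccn2, Ankrd1, Lats1, Lats2, Stk3, Stk4, Nf2 and Amotl2; Amot, Dlc1 and Gadd45b were added after their values were seen. Of other pathway genes, those called and Yap1 and Wwtr1 are named. Alternatives were DESeq2 1.42.0, its size factors, no filter, a replicate block, the set as a term, 2 lines only, other prior counts and leaving out each library. The set came from these same counts, so fits and calls with it as a term are descriptions and not independent tests. Replicate numbers in the labels were checked as pairs: departures from the line mean of same-numbered EHE6 and EHE17 libraries correlated at 0.132, 0.180 and 0.574 across genes. EHE6 replicate 1 with EHE17 replicate 2 (0.536) and EHE6 replicate 2 with EHE17 replicate 1 (0.623) correlated more than the same numbers did. The check thus did not bear out pairing of replicates 1 and 2 by number, and the block is given only as an alternative.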

Additional observations from a re-analysis of the deposited data

Results flagged for a closer look

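In 6 of the 36 genes, replicate 3 lay above both other libraries of one line and below both in the other, a pattern found in 15.8% of all tested genes. The difference between the lines was not tested in any of them. Axl differed from the mean of replicates 1 and 2 by a log2 value of 5.46 in EHE6 and -1.14 in EHE17. Wwc1 went the other way, with -2.81 in EHE6 and 0.92 in EHE17. Arhgef17 differed by 0.96 in EHE6 and -1.34 in EHE17, and F3 by 1.44 and -5.19, the latter from a library with 0 reads. Lats2 and Ptpn14 moved little: -0.31 in EHE6 and 0.32 in EHE17 for Lats2, and 0.32 and -0.46 for Ptpn14.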

How the results depend on the processing

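No member was called in EHE17 against EHE6 under any alternative run, and no result reversed past the threshold. With the replicate block the members called stayed at 0 for EHE17 against EHE6 (0 also with only those lines in the fit, an alternative chosen after seeing the data), while all genes called went from 27 to 33. The numbers of EHE26 do not pair with the other lines by the same check (0.182 and -0.0981 with EHE6, -0.0636 and -0.115 with EHE17). EHE26 has only replicates 1 and 2, so the block set it mainly against libraries of the first set. Calls for EHE26 with the block thus mix line and set. EHE6 replicate 1 correlated best with EHE17 replicate 2 (0.536) and EHE6 replicate 2 with EHE17 replicate 1 (0.623).

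Counts of calls moved widely, and the cause was not tested. Where 1 EHE26 library was left out, the other was assumed to vary like the other lines. For EHE26 against EHE6, 1 member called became 3 with DESeq2 (Ccn2, Fat1, Ccdc80), 5 with the replicate block (Ccn1, Ccn2, Gadd45b, Fat1, Ccdc80), 3 with the set as a term (Nuak2, Fat1, Ccdc80), 0 with only those lines, and 0 to 3 without single libraries. The 3 came without EHE6 replicate 3 (Axl, Gadd45b, Ccdc80), and the 0 without EHE6 replicate 1, EHE6 replicate 2 or EHE26 replicate 1. For EHE26 against EHE17, 1 became 3 with DESeq2 (Ccn2, Wwc1, Ccdc80), 2 without the filter and 2 with only those lines (Axl, Ccdc80), 4 with the block (Ccn1, Axl, Ccn2, Ccdc80), 2 with the set as a term (Fat1, Ccdc80), and 0 to 4 without single libraries. The 4 came without EHE6 replicate 3 (Axl, Fat1, Wwc1, Ccdc80).

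Other pathway genes called in EHE17 against EHE6 went from 0 to 2 with DESeq2 (Vgll3, Cdc42ep3). In EHE26 against EHE6 they went from 2 to 7 with DESeq2, 11 with the block, 1 with only those lines, and 0 to 12 without single libraries. In EHE26 against EHE17 they went from 1 to 2 with the size factors, 8 with DESeq2, 8 without the filter, 14 with the block, 9 with only those lines, and 0 to 11 without single libraries.

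Over all genes, the 27 calls of EHE17 against EHE6 became 392 with DESeq2, 142 without the filter, 102 with the set as a term, 7 with only those lines and 1 to 54 without single libraries. The 237 of EHE26 against EHE6 became 1570 with DESeq2, 547 without the filter, 1459 with the block, 356 with the set, 126 with only those lines and 65 to 1632 without single libraries. The 203 of EHE26 against EHE17 became 1712 with DESeq2, 745 without the filter, 1860 with the block, 319 with the set, 764 with only those lines and 2 to 1415 without single libraries.

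Of the 108 log2 fold changes of members, 105 kept their sign with DESeq2 and with its size factors, 107 without the filter, 102 with the block, 82 with the set as a term, and 98 to 104 without single libraries. Under the other scaling the signs that turned were those of Ajuba, Lats2 and Crim1, each close to 0. The prior count moved the replicate 3 difference of F3 in EHE17 by up to 1.97. Ankrd1, F3 and Fjx1 had a library at 0 reads, so their fold changes depend on the prior count.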

Other observations

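Among the pathway genes outside the list, a few others divided the libraries by set at low levels. The sets stood at least 2-fold apart for 3 of 52 tested upstream genes (5.77%), Patj, Fat2 and Fat3. They did so for 1 of 22 other targets (4.55%), Dkk1, and for 0 of 8 tested effectors, beside 9.17% of all tested genes. Patj, which encodes a junction scaffold, was read at 3.92 to 6.07 CPM in the first set and at 0.126 to 0.281 CPM in the second. The cadherin gene Fat2 held 2.5 to 4.70 CPM in the first set and was at 0 in replicate 3 of EHE6 and of EHE17, and at 0.0184 and 0.0877 CPM in EHE26. Dkk1, a secreted WNT inhibitor, was at most 0.0282 CPM in the first set and was read at 1.64 CPM in EHE6 replicate 3, 0.0803 CPM in EHE17 replicate 3, and 8.41 and 22.9 CPM in EHE26. These genes were chosen after their values were seen, and no test was made.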
